A study of Mus musculus with 23 samples.

Results

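The genes described here mark microglia and macrophages, the phagocytes of brain and of other tissues, and were followed in single mouse cells that are labelled as fibroblasts, cardiomyocytes or astrocytes. Their members are the probe sets annotated to 1 of 10 symbols alone: Pycard, Lyz2, Laptm5, Cd68, Aif1, Tyrobp, Fcer1g, C1qa, C1qb and Ctss. The rule found 18 probe sets among 45101, of which 45037 were tested after 64 array controls were set aside. It matched symbols and used no measured value, but the symbols were chosen with earlier results of these data known. Laptm5 had 5 probe sets, Pycard and C1qb had 3 each, and the other genes had 1 each. No filter on low values was applied, so every member entered every test.

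Each of the 23 samples was 1 cell, drawn into a glass micropipette, whose RNA was amplified and hybridized to 1 Affymetrix mouse array. Cardiomyocyte poly-A RNA had been delivered by lipid transfection to the fibroblasts of the fibroTIPeR group (5 cells) and to the astrocytes of the astroTIPeR group (6 cells), the transcriptome transfer for which TIPeR stands in the labels. FibroControl (3 cells) were fibroblasts transfected with fibroblast RNA, astroControl (2 cells) were astrocytes given a mock transfection, and the cardiomyocyte (4 cells) and fibroblast (3 cells) groups were not transfected. All cells were kept in DMEM with serum, and the labels give no strain, age, culture or animal, so a p-value here speaks of variation among these cells alone, part of which may be technical.

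As background, microglia and tissue macrophages engulf and digest material. Lysozyme and cathepsins break it down in the lysosome, the adaptors Tyrobp and Fcer1g carry the signal of surface receptors to the kinase Syk, and C1q opens the classical complement pathway. Astrocyte cultures are commonly prepared from brain tissue that also contains microglia.

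All levels below are log2 values after quantile normalization over the 23 arrays, a scale on which the median of all probe sets was 5.05 and the 90th percentile 9.41. A level is set beside the 95th percentile of 44 olfactory receptor probe sets in the same cell, which lay between 7.45 and 10.33. This olfactory mark describes the low end of each array and is no detection test. The 8 astrocyte arrays had deposited medians of 4.28 to 4.56 and the 15 fibroblast and cardiomyocyte arrays 5.05 to 5.58, so cell type and array set cannot be told apart. The labels were checked against marker lists, with cells of both array sets side by side. Of 12 cardiomyocyte markers, 6 to 9 exceeded the olfactory mark in each cardiomyocyte, against 0 to 3 in every other cell. Of 12 astrocyte markers, 2 to 4 exceeded it in the astrocyte cells, against 2 to 6 in the other cells. Gja1 1415801_at (10.78 to 11.43) and Sox9 1451538_at (11.04 to 11.73) exceeded the mark in 8 of 8 astrocyte cells. Slc1a3 1439072_at exceeded it in 7. Each of these probe sets was higher in some other cell than in any astrocyte cell, with Gja1 up to 11.94 and Sox9 up to 11.80. None of the 3 probe sets of Gfap, the astrocyte filament protein, exceeded the mark in any astrocyte cell, where they ranged from 2.17 to 6.88.

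**Figure D1:**
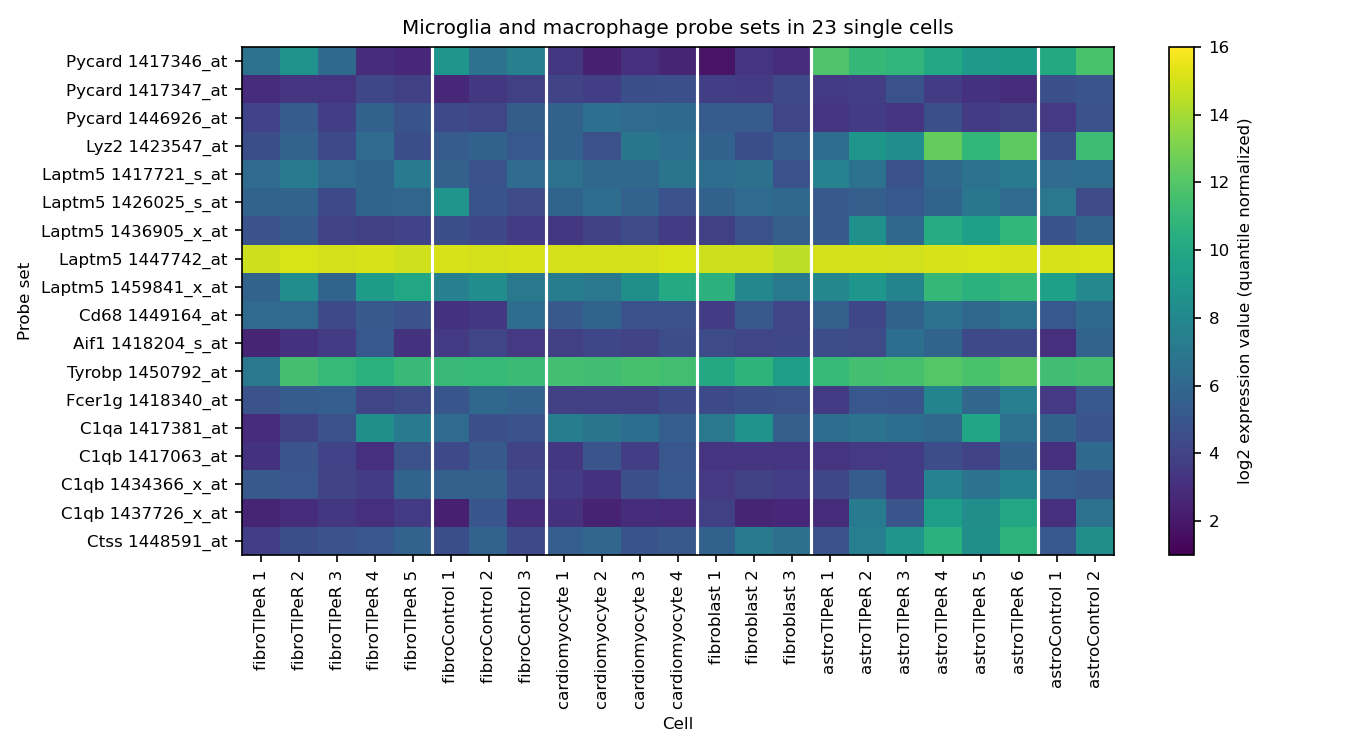
Level (log2, quantile normalized) of the 18 member probe sets, in rows, in the 23 cells, in columns grouped by label and divided by white lines. Laptm5 1447742_at is near 15 in every cell and Tyrobp near 11 in most, while Lyz2, Ctss, Laptm5 1436905_x_at and C1qb 1437726_x_at are bright in some astrocyte cells and dark in the other cells.

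On 4 member probe sets, those of Lyz2 and Ctss and 1 each of Laptm5 and C1qb, some astrocyte cells exceeded the olfactory mark and no fibroblast or cardiomyocyte cell did. Lyz2, the lysozyme of macrophages, reached 12.46, 12.30 and 10.95 in astroTIPeR cells 4, 6 and 5, where the olfactory marks were 9.45, 8.98 and 9.72. It was 8.92, 8.37 and 6.34 in astroTIPeR cells 2, 3 and 1. In the astroControl cells it was 4.69 and 11.29, so the control cells themselves spanned most of this range. In the other 15 cells Lyz2 ranged from 4.38 to 6.83, and it exceeded the olfactory mark in 4 of 8 astrocyte cells and in 0 of 15 others.

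Ctss, the lysosomal protease cathepsin S, was highest in astroTIPeR cells 6 and 4, which also had the most Lyz2. It was 10.55, 10.72 and 8.48 in astroTIPeR cells 4, 6 and 5, and 7.43, 8.81 and 4.84 in cells 2, 3 and 1. The astroControl cells had 5.12 and 8.42, and the other 15 cells had 3.81 to 7.05. It exceeded the mark in 3 of 8 astrocyte cells, astroTIPeR 4, 6 and 3, while astroTIPeR 5 lay below its mark of 9.72. AstroTIPeR cell 1 and astroControl cell 1 were the low cells for both genes, and the astroTIPeR and astroControl ranges overlapped.

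The probe sets of Laptm5 and C1qb with the highest mean did not show this pattern most clearly, and the following ones were picked after their values were seen. Laptm5, a lysosomal membrane protein of blood-derived cells, had on 1436905_x_at 10.26, 10.96 and 9.47 in astroTIPeR cells 4, 6 and 5 and 8.54, 6.05 and 5.20 in cells 2, 3 and 1. The astroControl cells had 4.90 and 5.77, and the other 15 cells 3.40 to 5.56. C1qb, a chain of the C1q recognition subunit, had on 1437726_x_at 9.36, 9.98 and 8.42 in astroTIPeR cells 4, 6 and 5 and 7.26, 4.97 and 2.95 in cells 2, 3 and 1. It was 3.09 and 6.68 in the astroControl cells, and 2.33 to 4.99 in the other 15 cells. The Laptm5 probe set exceeded the mark in 2 of 8 astrocyte cells and the C1qb probe set in 1. For both probe sets astroTIPeR cells 2, 4, 5 and 6 lay above each of the 2 astroControl cells.

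Fcer1g, the common gamma chain of Fc receptors, was highest in astroTIPeR cells 4 and 6. It was 7.79, 7.44 and 5.95 in astroTIPeR cells 4, 6 and 5 and 5.06, 4.97 and 3.54 in cells 2, 3 and 1. The astroControl cells had 3.51 and 5.12, and the other 15 cells 3.85 to 6.01. No cell had Fcer1g above the olfactory mark.

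**Figure D2:**
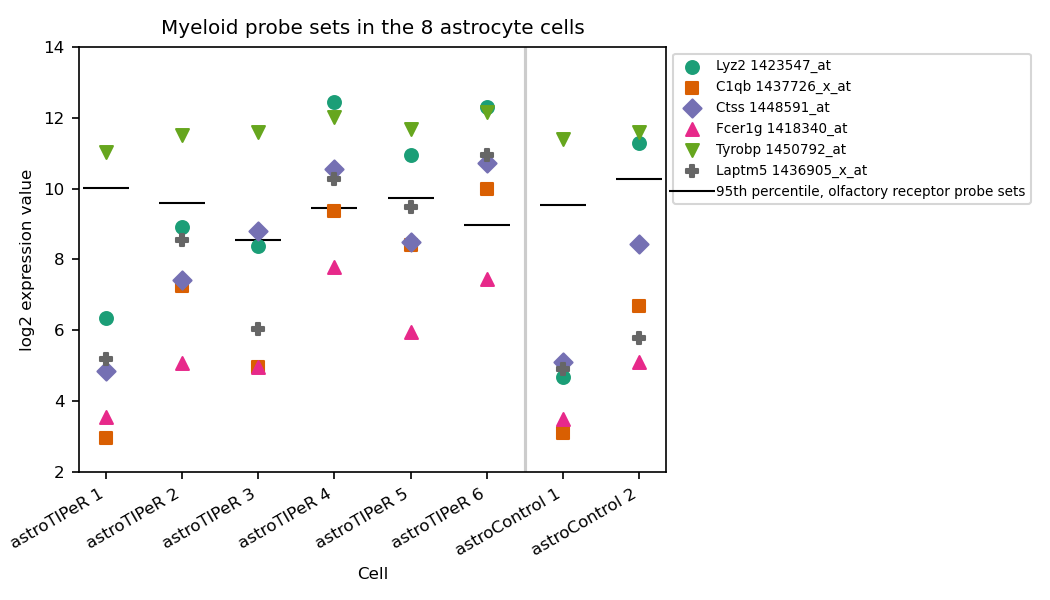
Level (log2, quantile normalized) of 6 member probe sets in the 6 astroTIPeR cells, left of the vertical line, and the 2 astroControl cells, right of it; black bars give the 95th percentile of olfactory receptor probe sets in that cell. Lyz2 spans 4.69 to 12.46 while Tyrobp stays between 11.04 and 12.15, and astroTIPeR 1 and astroControl 1 hold the lowest Lyz2 values.

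Over the 8 astrocyte cells these probe sets moved together. The correlation with Lyz2 was 0.94 for C1qb 1437726_x_at, 0.92 for Ctss, 0.91 for Fcer1g, 0.82 for Tyrobp and 0.79 for Laptm5 1436905_x_at (Pearson, n = 8). Without astroControl 1 and astroTIPeR 1, the cells farthest from the median of Lyz2, the values were 0.84, 0.74, 0.83, 0.78 and 0.61 in the same order (n = 6). Over the 15 other cells they were 0.10, -0.13, -0.32, 0.34 and -0.16. These are descriptions of cells that share array set and normalization, and they were chosen because they looked alike.

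A wider count used all probe sets. Of the 17 members other than Lyz2, 7 had a correlation with Lyz2 above 0.7 over the 8 astrocyte cells, as did 3.22% of all probe sets. Besides the probe sets named above, the 7 included C1qb 1417063_at at 0.79 and Pycard 1446926_at at 0.701. Those probe sets and Fcer1g stayed below the olfactory mark in every cell. Pycard 1417346_at had a correlation of -0.39. Of 28 other microglia and macrophage genes measured, each by its probe set of highest mean, 6 passed 0.7, and over all 47 probe sets of those genes 9 did, from 8 genes. By the probe set of highest mean, 4 of 13 adaptor partners (among them Fcgr3 and Sirpb1a), 2 of 12 fibroblast genes (Lum at 0.74 and Vim at 0.73) and 1 of 18 lysosomal genes (Grn) also passed 0.7. None of the astrocyte, cardiomyocyte, endothelial, oligodendrocyte, other blood cell, inflammasome or complement lists had a gene above it. For the astrocyte list none of 37 probe sets passed. The astrocyte genes Ndrg2 at 0.698 and Aldoc at 0.686 and the complement gene Cd46 at 0.671 lay just below the cutoff. The macrophage gene Cd53 passed it at 0.709, and 8 cells are too few to tell such values apart. The median correlation of the 28 macrophage genes was 0.14, and that of the 12 astrocyte genes was 0.03. The nearest list gene was Lyz1, the lysozyme that is a near-identical copy of Lyz2, at 0.99 on 1436996_x_at. Because probe sets of such copies can share target sequence, the levels of Lyz1 and Lyz2 are uncertain as separate measurements.

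A few other myeloid genes of the list, chosen after their values were seen, were higher in some of these cells. Cd14 and Mpeg1 exceeded the olfactory mark in 1 of 8 astrocyte cells each and Adgre1 did in 2. Cd14, the co-receptor for bacterial lipopolysaccharide, was 8.25, 9.43 and 7.66 in astroTIPeR cells 4, 6 and 5 and 3.51 and 8.80 in the astroControl cells, with 2.12 to 7.68 in the other 15 cells. Mpeg1, a pore-forming protein of macrophages, was 8.28, 9.45 and 7.45 in those astroTIPeR cells and 4.16 and 5.60 in the astroControl cells, with 3.98 to 6.54 in the other 15 cells. Adgre1, which encodes F4/80, was 10.09, 10.55 and 8.73 in them and 5.98 and 5.19 in the astroControl cells, but fibroblast 1 also reached 8.90. The leukocyte phosphatase Ptprc (CD45) was 4.74, 8.47 and 6.94 in astroTIPeR cells 4, 6 and 5 on 1422124_a_at, against 4.43 and 4.74 in astroControl cells and at most 4.09 in the 15 other cells. On its other probe set, 1440165_at, it was 2.93, 4.15 and 3.62 in those astroTIPeR cells and 3.85 and 5.59 in the astroControl cells, and neither probe set exceeded the mark in any astrocyte cell. Fcgr3, a low-affinity IgG receptor that signals through Fcer1g, had a correlation of 0.93 with Lyz2.

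Other genes of the list, general macrophage genes among them, did not follow Lyz2 on their probe set of highest mean. The correlation over the 8 astrocyte cells was then -0.18 for the integrin Itgam, -0.32 for the mannose receptor Mrc1 and 0.01 for Spi1. It was -0.72 for the scavenger receptor Msr1, -0.41 for the oxidase subunit Cybb, and -0.72 and -0.44 for the chemokines Ccl3 and Ccl4. The other probe sets of Msr1 had 0.71 on 1448061_at, 0.32 on 1425435_at and -0.42 on 1422062_at. Those of Cybb had 0.66 on 1436778_at and -0.05 on 1436779_at. Msr1 1448061_at was 7.21, 9.10 and 7.10 in astroTIPeR cells 4, 6 and 5, and exceeded the olfactory mark in 1 astrocyte cell. P2ry12, a purine receptor of resting microglia, was 3.26 to 5.98 over the 8 astrocyte cells, and Tmem119 was 4.52 to 5.77, both below the olfactory mark in each. Gpr34 was 1.74 to 5.56 there. Cx3cr1, the fractalkine receptor, was 11.52 to 12.55 on 1450020_at, as in the other cells (11.14 to 12.50), and 3.73 to 5.83 on 1450019_at, below the mark. The other macrophage list exceeded the olfactory mark in 11 of 28 genes in astroTIPeR 6 and in 7 in astroTIPeR 4 and 5. The counts were 4 and 3 in the astroControl cells and 2 to 7 in the other 15 cells. Over all probe sets, 11.4%, 9.90% and 9.09% exceeded it in astroTIPeR 6, 4 and 5. Of the 11, Csf1r, Cx3cr1, Trem2, Lcp1 and Lgals3 were higher in some fibroblast or cardiomyocyte cell (up to 11.44, 12.50, 11.46, 10.84 and 11.90). Lyz1, the copy of Lyz2, was also among the 11. What these astrocyte-labelled cells were beyond their label was not tested.

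The promoters of Lyz2, Ctss, Laptm5, C1qb and Fcer1g, members that moved together in the astrocyte cells, are shown because such genes are commonly bound by PU.1, the myeloid transcription factor encoded by Spi1. They are RefSeq sequences of build GRCm38.p6, 250 bases before to 50 after the start on the gene's strand. Capitals mark GAGGAA or its reverse complement TTCCTC, a form of the core bound by PU.1, and other forms were not searched.
Lyz2 (chr10:117282223-117282522, minus strand): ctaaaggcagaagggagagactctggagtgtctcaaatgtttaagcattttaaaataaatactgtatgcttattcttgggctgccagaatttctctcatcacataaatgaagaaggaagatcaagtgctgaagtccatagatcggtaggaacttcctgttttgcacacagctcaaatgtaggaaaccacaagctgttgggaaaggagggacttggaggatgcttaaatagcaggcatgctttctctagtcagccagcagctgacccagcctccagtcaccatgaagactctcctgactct
Ctss (chr3:95526536-95526835, plus strand): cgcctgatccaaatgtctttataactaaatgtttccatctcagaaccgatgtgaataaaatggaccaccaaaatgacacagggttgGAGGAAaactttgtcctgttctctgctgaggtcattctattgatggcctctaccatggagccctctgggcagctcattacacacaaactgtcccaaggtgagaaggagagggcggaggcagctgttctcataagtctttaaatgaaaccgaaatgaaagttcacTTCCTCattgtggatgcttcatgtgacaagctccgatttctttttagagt
Laptm5 (chr4:130913066-130913365, plus strand): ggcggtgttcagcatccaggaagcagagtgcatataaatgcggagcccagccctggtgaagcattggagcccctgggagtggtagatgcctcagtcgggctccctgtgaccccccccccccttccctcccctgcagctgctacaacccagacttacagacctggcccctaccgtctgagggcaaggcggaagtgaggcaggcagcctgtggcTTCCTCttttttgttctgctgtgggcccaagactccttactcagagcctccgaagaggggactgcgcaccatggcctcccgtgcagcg
C1qb (chr4:136886151-136886450, minus strand): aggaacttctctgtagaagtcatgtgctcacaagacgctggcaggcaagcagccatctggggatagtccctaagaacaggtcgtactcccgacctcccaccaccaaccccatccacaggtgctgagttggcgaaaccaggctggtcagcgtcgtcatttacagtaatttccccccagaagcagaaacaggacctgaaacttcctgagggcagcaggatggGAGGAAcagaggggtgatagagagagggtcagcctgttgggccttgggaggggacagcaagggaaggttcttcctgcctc
Fcer1g (chr1:171234300-171234599, minus strand): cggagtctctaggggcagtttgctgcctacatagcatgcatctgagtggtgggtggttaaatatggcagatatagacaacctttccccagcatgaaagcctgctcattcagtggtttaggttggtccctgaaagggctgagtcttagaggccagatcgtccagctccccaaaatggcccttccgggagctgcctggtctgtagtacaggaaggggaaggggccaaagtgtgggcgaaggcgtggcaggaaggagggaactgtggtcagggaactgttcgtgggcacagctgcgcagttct
Of the 5 shown, 3 held GAGGAA on either strand (Ctss, Laptm5 and C1qb). Counting also Pycard, Cd68 and Aif1, which all held it, 6 of the 8 members matched to the table did, and so did 28.3% of all 32851 promoters of this length. No promoter of Tyrobp or C1qa was used here. The AP-1 motif TGANTCA was in 1 of 8, that of Cd68, and in 7.81% of all promoters. Both strands were searched, the motifs were counted separately, and a match describes letters only. Spi1 itself was 4.12 to 7.18 in the astrocyte cells, below the olfactory mark in each.

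Transfer of cardiomyocyte RNA into astrocytes was compared with mock transfection to ask whether it changed these genes. None of the 18 members passed an adjusted p of 0.05 between astroTIPeR and astroControl cells, beside 0.127% of all probe sets (limma over all probe sets, Benjamini-Hochberg adjustment), and 2 members had an unadjusted p under 0.05, beside 9.81% of all probe sets. The difference was 3.08 ± 1.02 (SE, adjusted p = 0.242, limma) for Laptm5 1436905_x_at, with means of 8.41 and 5.34. It was 2.27 ± 1.17 for C1qb 1437726_x_at, 1.90 ± 1.35 for Lyz2 and 1.70 ± 1.10 for Ctss, with adjusted p-values of 0.547, 0.712 and 0.671 by limma. The second member with an unadjusted p under 0.05 was Pycard 1417347_at, with means of 3.63 and 4.81 and a difference of -1.18. The median difference over the 18 members was 0.34 and over all probe sets 0.03. With 2 astroControl cells, 1 low and 1 high, the intervals were wide, and the Lyz2 interval ran from -0.87 to 4.67.

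**Figure D3:**
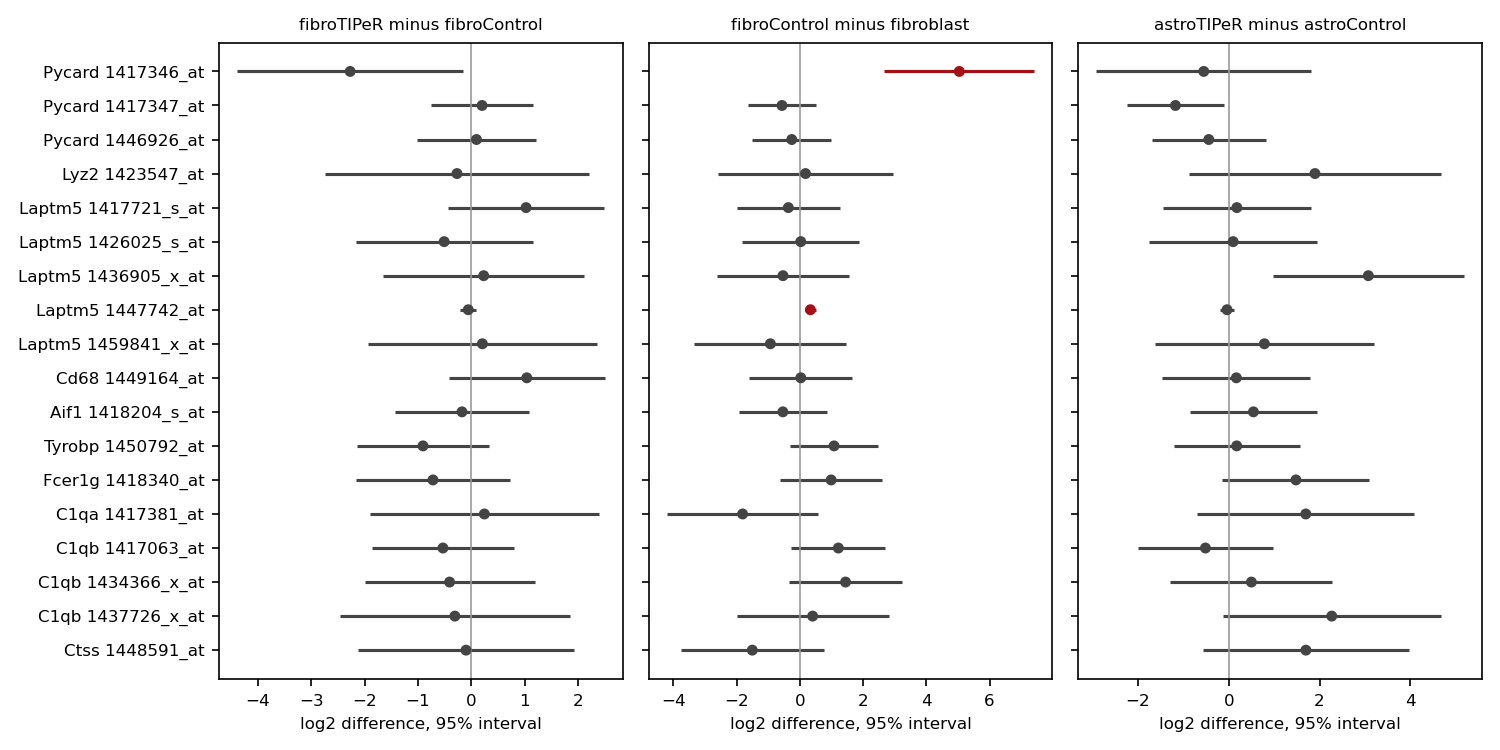
Difference in log2 level with its 95% interval (limma, 6-group fit) for the 18 member probe sets in 3 comparisons, each the first-named group minus the second; red marks an adjusted p at or below 0.05. Only Pycard 1417346_at and Laptm5 1447742_at, both in fibroControl minus fibroblast, are red.

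Pycard, the adaptor known as ASC that joins inflammasome sensors to caspase-1, was higher in fibroControl than in fibroblast cells on 1 of its 3 probe sets. Probe set 1417346_at was 8.86, 6.68 and 7.54 in fibroControl cells, against 1.76, 3.25 and 2.95 in fibroblast cells. The groups did not overlap, which held for 22.8% of all probe sets, and the difference was 5.04 ± 1.15 (SE, adjusted p = 0.0317, limma). Pycard 1417346_at was 1 of 2 members called in this comparison, beside 1.32% of all probe sets. The call was lost when any 1 of the 6 cells was left out, with differences of 4.45 to 5.55 and adjusted p-values of 0.0536 to 0.0995 by limma.

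The same probe set split the fibroTIPeR cells. It was 6.63, 8.62 and 6.16 in fibroTIPeR cells 1 to 3 and 2.94 and 2.76 in cells 4 and 5. The cardiomyocytes had 3.40, 2.32, 3.05 and 2.54. FibroTIPeR averaged 5.42 ± 2.52 (SD, n = 5), between fibroControl at 7.69 ± 1.10 and fibroblast at 2.65 ± 0.79 (SD, n = 3 each), and neither difference passed (adjusted p = 0.744 and 0.335, limma).

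This split ran with the 18S ribosomal RNA controls on the arrays. Their mean level was 11.03 to 13.48 in fibroTIPeR cells 1 to 3 and the fibroControl cells, where Pycard 1417346_at was 6.16 to 8.86. It was 6.94 to 8.24 in the other 9 fibroblast and cardiomyocyte arrays, where Pycard was 1.76 to 3.40. With the 18S level as a covariate, a setting added after the data were seen, the fibroControl minus fibroblast difference was 2.61 (adjusted p = 0.610, limma). In that fit 0 of 45037 probe sets passed in this comparison, against 596 in the main fit, so the lost call was not particular to Pycard. The 18S levels of fibroControl and fibroblast cells did not overlap. In the astrocyte arrays 18S was 7.63 to 9.57 and Pycard 1417346_at was higher still, at 9.13 to 11.84. The part of the 18S level or of array set in these differences was not tested beyond that fit.

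**Figure D4:**
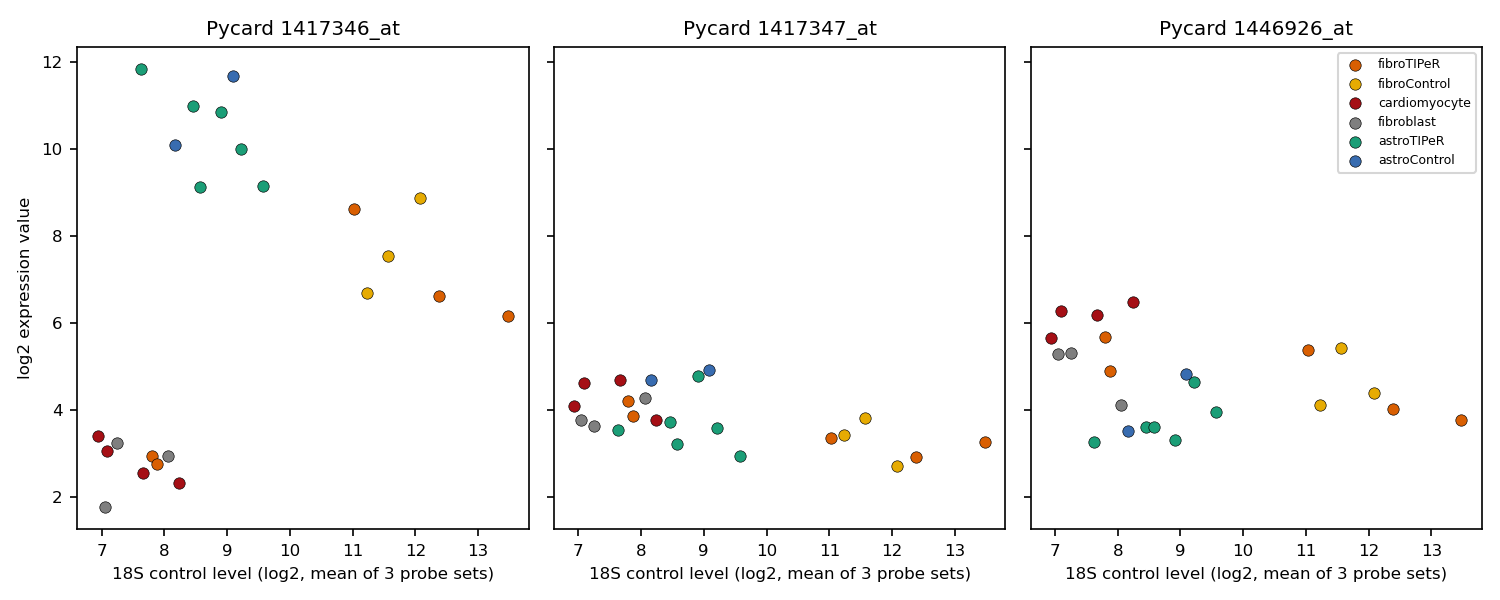
Level (log2, quantile normalized) of the 3 Pycard probe sets against the mean level of the 18S control probe sets in the same cell, 1 point per cell, coloured by group. On 1417346_at the astrocyte cells lie at 9.13 to 11.84, fibroTIPeR 1 to 3 and fibroControl at 6.16 to 8.86 and the other 9 cells at 1.76 to 3.40, while the other probe sets stay below 6.5 in all cells.

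The other Pycard probe sets did not follow. Probe set 1417347_at ranged from 2.72 to 4.93 and 1446926_at from 3.26 to 6.47 over the 23 cells, both below the olfactory mark in every cell. Their correlation with 1417346_at was -0.13 and -0.70 over the 23 cells, and -0.21 and -0.20 after group means were removed (Pearson). Pycard 1417346_at was also the only member whose levels in the 8 astrocyte cells, with a median of 10.43 in astroTIPeR cells and 10.09 and 11.67 in astroControl cells, did not overlap those in the 15 others. This held for 0.164% of all probe sets.

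The 5 probe sets of Laptm5 did not share 1 pattern over the cells. Probe set 1447742_at had the highest mean of the gene. It was 14.86, 15.18, 15.05, 15.10 and 14.91 in fibroTIPeR cells, 15.08, 15.05 and 15.10 in fibroControl cells, 15.05, 15.05, 15.05 and 15.16 in cardiomyocytes and 14.88, 14.86 and 14.50 in fibroblast cells. In astroTIPeR cells the lowest, median and highest were 14.95, 15.08 and 15.16, and the astroControl cells had 15.08 and 15.13. It was thus above the 99.9th percentile of every cell, near the top of a scale on which the highest deposited value of an array was 15.7 to 15.9, and 3 cardiomyocytes were tied. Whether the probe set was saturated was not tested, so the size of a difference there is uncertain. Laptm5 1447742_at was the second member called in fibroControl against fibroblast, with a difference of 0.33 ± 0.08 (SE, adjusted p = 0.0396, limma). The mean of the 5 Laptm5 probe sets, a different quantity, had a difference of -0.30.

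The other Laptm5 probe sets had wider ranges. Probe set 1459841_x_at ranged from 5.76 to 11.02, 1417721_s_at from 4.78 to 7.63 and 1426025_s_at from 4.36 to 8.80. The correlations of 1447742_at with 1417721_s_at, 1426025_s_at, 1436905_x_at and 1459841_x_at were 0.39, -0.06, 0.16 and 0.30 over the 23 cells. Over the 8 astrocyte cells the pair of Laptm5 x_at probe sets had a correlation of 0.84. Pairs of a Laptm5 and a C1qb x_at probe set had 0.74 to 0.96 there, so such agreement was not particular to probe sets of the same gene. Its source was not tested. A rule that keeps the probe set of highest mean therefore represents Laptm5 by 1447742_at, which spans 0.68 over all cells, and not by 1436905_x_at, which spans 7.55.

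Cd68, a lysosomal glycoprotein used to stain macrophages, stayed low. It was 6.23, 6.25, 4.40, 5.20 and 4.81 in fibroTIPeR cells, 3.22, 3.42 and 6.36 in fibroControl cells, 5.21, 5.84, 4.74 and 4.82 in cardiomyocytes and 3.61, 5.20 and 4.12 in fibroblast cells. In astroTIPeR cells the lowest, median and highest were 4.17, 5.87 and 6.61, against 5.12 and 6.12 in astroControl cells. The group ranges overlapped, and no cell exceeded the olfactory mark.

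Aif1, the calcium-binding protein Iba1 by which microglia are usually stained, was below the olfactory mark in every cell. It was 2.55, 3.17, 3.68, 5.15 and 3.18 in fibroTIPeR cells, 3.54, 4.12 and 3.50 in fibroControl cells, 3.87, 4.21, 4.07 and 4.53 in cardiomyocytes and 4.45, 4.12 and 4.21 in fibroblast cells. In astroTIPeR cells the lowest, median and highest were 4.28, 4.49 and 6.40, against 3.09 and 5.77 in astroControl cells. The highest, astroTIPeR 3, was not one of the 3 cells with most Lyz2.

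Tyrobp, the DAP12 adaptor that pairs with Trem2, was above the olfactory mark in nearly every cell. It was 7.02, 11.57, 11.05, 10.55 and 11.09 in fibroTIPeR cells, 11.18, 11.07 and 11.24 in fibroControl cells, 11.53, 11.41, 11.61 and 11.48 in cardiomyocytes and 10.07, 10.76 and 9.42 in fibroblast cells. In astroTIPeR cells the lowest, median and highest were 11.04, 11.64 and 12.15, against 11.40 and 11.59 in astroControl cells. It exceeded the olfactory mark in 22 of 23 cells, the exception being fibroTIPeR 1. Cardiomyocytes lay above fibroblast cells without overlap, and groups did not overlap for 11.2% of all probe sets. The difference of 1.43 ± 0.63 did not pass (SE, adjusted p = 0.498, limma).

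Fcer1g in the other cells was 4.85, 5.38, 5.48, 4.12 and 4.50 in fibroTIPeR cells, 5.04, 6.01 and 5.72 in fibroControl cells, 3.87, 3.85, 3.87 and 4.38 in cardiomyocytes and 4.40, 4.67 and 4.74 in fibroblast cells. The fibroControl cells lay above the fibroblast cells without overlap, and groups did not overlap for 22.8% of all probe sets. The difference of 0.99 ± 0.79 did not pass (SE, adjusted p = 0.567, limma). Partners of the adaptors, a list of receptors and kinases, had 13 of 15 genes measured, and none passed in any comparison. The smallest p between astroTIPeR and astroControl cells belonged to Fcgr3, with means of 6.08 and 3.71, and to Sirpb1a, with 5.80 and 3.82 (adjusted p = 0.243 and 0.399, limma). In fibroControl against fibroblast it belonged to Fcer1a, with 3.93 and 5.79, and Trem2, with 6.90 and 8.91 (adjusted p = 0.210 and 0.501, limma).

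Among the complement members C1qa, another chain of C1q, varied within groups, most of all among fibroTIPeR cells. It was 2.92, 3.98, 4.77, 8.49 and 7.27 in fibroTIPeR cells, 6.24, 4.66 and 4.83 in fibroControl cells, 7.33, 6.75, 6.42 and 5.47 in cardiomyocytes and 7.01, 8.63 and 5.52 in fibroblast cells. In astroTIPeR cells the lowest, median and highest were 6.08, 6.53 and 9.88, against 5.66 and 4.98 in astroControl cells. The astroTIPeR cells lay above the astroControl cells without overlap, which held for 11.3% of all probe sets, and the difference of 1.70 ± 1.17 did not pass (SE, adjusted p = 0.696, limma). Its highest cell, astroTIPeR 5, was not the highest for C1qb, and its correlation with Lyz2 over the astrocyte cells was 0.20.

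C1qb on its probe set of highest mean, 1434366_x_at, was 5.21, 5.06, 4.05, 3.61 and 5.83 in fibroTIPeR cells, 5.59, 5.58 and 4.31 in fibroControl cells, 3.64, 3.21, 4.66 and 5.14 in cardiomyocytes and 3.47, 3.95 and 3.74 in fibroblast cells. In astroTIPeR cells the lowest, median and highest were 3.60, 6.06 and 7.66, against 5.50 and 5.21 in astroControl cells. The third probe set, 1417063_at, ranged from 3.02 to 6.15. Pairs of the 3 had correlations of 0.41 to 0.74 over the 23 cells, against -0.06 to 0.51 for pairs of the 5 Laptm5 probe sets. Of the complement list 11 of 14 genes were measured and none passed. The smallest p in astroTIPeR against astroControl belonged to C1qc, with 8.48 and 7.17, and C3ar1, with 7.27 and 6.25 (adjusted p = 0.777 and 0.833, limma), and in fibroControl against fibroblast to C2, with 5.56 and 7.66, and Cfb, with 11.28 and 10.58 (adjusted p = 0.270 and 0.326, limma).

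Lyz2 and Ctss in the fibroblast and cardiomyocyte arrays showed no group apart. Lyz2 was 4.58, 5.70, 4.38, 6.25 and 4.61 in fibroTIPeR cells, 5.33, 5.66 and 5.12 in fibroControl cells, 5.66, 4.74, 6.83 and 6.49 in cardiomyocytes and 5.63, 4.61 and 5.34 in fibroblast cells. Ctss was 3.81, 4.59, 4.86, 5.06 and 5.71 in fibroTIPeR cells, 4.60, 5.73 and 4.37 in fibroControl cells, 5.46, 5.98, 4.89 and 5.18 in cardiomyocytes and 5.64, 7.05 and 6.54 in fibroblast cells. Fibroblast cells had the highest Ctss mean of these 4 groups, 6.41 ± 0.72 (SD, n = 3), and its range met those of fibroTIPeR, fibroControl and cardiomyocyte cells.

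In the order of group means, astroTIPeR came first for Lyz2 (9.89 ± 2.42), Ctss (8.47 ± 2.18), Fcer1g (5.79 ± 1.61), Cd68 (5.79 ± 0.91), Aif1 (4.98 ± 0.91) and Tyrobp (11.67 ± 0.40, SD, n = 6 each). AstroControl came second for Lyz2 (7.99 ± 4.67), Ctss (6.77 ± 2.34), Cd68 (5.62 ± 0.71) and Aif1 (4.43 ± 1.89, SD, n = 2 each). AstroTIPeR was followed by fibroControl for Fcer1g (5.59 ± 0.50, SD, n = 3) and by cardiomyocyte for Tyrobp (11.51 ± 0.09, SD, n = 4). For C1qb 1434366_x_at astroTIPeR came first (5.86 ± 1.74, SD, n = 6) and astroControl second (5.36 ± 0.20, SD, n = 2). These neighbours differed by less than the larger of their SDs. For C1qa the fibroblast group came first at 7.06 ± 1.56 (SD, n = 3) and astroTIPeR second at 7.02 ± 1.42 (SD, n = 6), and for Pycard 1417346_at astroControl came first at 10.88 ± 1.11 (SD, n = 2) with astroTIPeR at 10.33 ± 1.09 (SD, n = 6).

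The remaining comparisons called no member. Between fibroTIPeR and fibroControl 0 of 18 passed, beside 0.00222% of all probe sets, and 1 had an unadjusted p under 0.05 (limma), beside 6.4% of all. Between fibroTIPeR and fibroblast 0 passed, beside 0.00444%, with 2 under an unadjusted 0.05, beside 10.5%. For cardiomyocyte against fibroblast 0 passed, beside 0.127%, with 3 under an unadjusted 0.05, beside 9.23%. For fibroTIPeR against cardiomyocyte 0 passed, beside 0.56%, with 3 under an unadjusted 0.05, beside 13%. The transfer effect in astrocytes minus that in fibroblasts called 0 members and 0 probe sets in all (0%), and 2 members, Fcer1g at 2.20 and Laptm5 1436905_x_at at 2.84, had an unadjusted p under 0.05, beside 7.99% of all probe sets. FibroTIPeR is set against 3 groups and fibroblast stands in 3 comparisons, so these share cells. The median member difference was -0.14, 0.0001, 0.03, 0.25, -0.23, 0.34 and 0.81 for fibroTIPeR against fibroControl, fibroTIPeR against fibroblast, fibroControl against fibroblast, cardiomyocyte against fibroblast, fibroTIPeR against cardiomyocyte, astroTIPeR against astroControl and the difference of transfer effects.

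Groups that did not overlap were read against the same count over all probe sets. Between fibroControl and fibroblast 6 of 18 members did not overlap, beside 22.8% of all probe sets, and between cardiomyocyte and fibroblast 5 of 18, beside 11.2%. In fibroTIPeR against fibroControl, against fibroblast and against cardiomyocyte 0 members were apart, beside 3.15%, 5.43% and 3.64% of all probe sets.

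Among genes that work with the members, few passed the test. Of 10 of 12 inflammasome genes measured, 1 passed in fibroControl against fibroblast, where Aim2, a sensor of cytosolic DNA that recruits Pycard, fell to 2.54 in fibroControl, against 9.04 in fibroblast cells (difference -6.50 ± 1.40, SE, adjusted p = 0.0231, limma). None passed elsewhere, and between astroTIPeR and astroControl the smallest p belonged to Casp1, with 3.94 and 4.98, and Casp4, with 5.29 and 4.20 (adjusted p = 0.625 and 0.638, limma). Of 18 of 20 lysosomal genes measured, 1 passed in fibroControl against fibroblast, where Cst3, the cysteine protease inhibitor cystatin C that blocks cathepsins, rose to 8.25 in fibroControl, against 3.89 in fibroblast cells (difference 4.36 ± 0.89, SE, adjusted p = 0.0192, limma). None passed between astroTIPeR and astroControl, where Ctsl had 8.23 and 6.27 and Ctsd 7.20 and 5.66 (adjusted p = 0.744 and 0.764, limma). In fibroControl against fibroblast neither Aim2 nor Cst3 passed with the 18S level as a covariate, nor did any other probe set.

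The 28 other microglia and macrophage genes had 0 passing in each comparison. Between astroTIPeR and astroControl the smallest p belonged to Gpr34, with 2.76 and 4.71, and Adgre1, with 8.09 and 5.59 (adjusted p = 0.326 and 0.455, limma), and the median difference was 0.52. Between fibroControl and fibroblast it belonged to Csf1r, the receptor for colony-stimulating factor 1, with 8.13 and 11.02, and Cd52, with 5.98 and 3.82 (adjusted p = 0.0654 and 0.0967, limma). Their mean level per cell ranged from 5.97 to 7.57 in astroTIPeR, 6.42 to 6.45 in astroControl, 5.52 to 6.07 in fibroTIPeR, 5.62 to 5.91 in fibroControl, 5.71 to 6.31 in cardiomyocyte and 5.73 to 6.36 in fibroblast cells.

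Other cell types were checked in the same way. Of the 12 fibroblast markers 2 (Vim and S100a4) were lower in cardiomyocyte than in fibroblast cells and 4 were higher in fibroTIPeR than in cardiomyocyte cells, and of the 12 cardiomyocyte markers 8 were higher in cardiomyocyte than in fibroblast cells and 8 lower in fibroTIPeR than in cardiomyocyte cells. Of 9 genes of other blood cells 1, Hba-a1, was lower in fibroTIPeR (7.23) than in cardiomyocyte cells (10.58, adjusted p = 0.0391, limma). None of the 12 astrocyte, 8 endothelial or 7 oligodendrocyte genes measured passed in any comparison. In astroTIPeR cells 4, 5 and 6, 0 of 9 genes of other blood cells exceeded the olfactory mark. Over all probe sets 9.90%, 9.09% and 11.4% did, so 0 of so few genes is near that share.

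The number of members above the olfactory mark per cell was 8 in astroTIPeR 6, 7 in astroTIPeR 4 and 5 in astroTIPeR 5, of 18. It was 3 or 4 in the other astroTIPeR and in the astroControl cells and 1 to 4 in the 15 other cells. Over all probe sets, 11.4%, 9.90% and 9.09% exceeded the mark in astroTIPeR 6, 4 and 5, and 7.35% to 18.1% over the 23 cells.

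The gene whose cell-to-cell pattern was most like that of each member was sought among 34927 other probe sets, as the correlation over 23 cells after the group means were removed. Lyz2 and Ctss were both closest to Lyz1, at 0.90 and 0.82. Pycard 1417346_at was closest to the class I histocompatibility gene H2-D1 at 0.91, and Fcer1g to the C-type lectin receptor Clec4d at 0.81. The probe set of highest mean was closest to Pik3r6 at 0.90 for Laptm5, to Doc2a at 0.96 for Tyrobp, to Odf1 at 0.85 for C1qb, to Zfp946 at 0.83 for Cd68, to Aass at 0.79 for Aif1 and to 4930506C21Rik at 0.86 for C1qa. A highest value among so many candidates is a description of these cells only.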

How the data were processed

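The deposited table held log2 expression values of 45101 probe sets in 23 cells, a scale read from their range; the summarization and normalization used by the authors are not named in the labels or the table itself. Columns were matched to cells by their sample identifiers, and 0 columns were left unmatched. The values were quantile normalized over all arrays. Probe sets were named from the platform annotation; 34945 of those tested carried 1 symbol, 932 several and 9160 none listed, and all 18 members matched the RefSeq gene table. All probe sets other than the 64 controls entered limma 3.58.1 (R 4.3.3) as 6 group means with eBayes and a trend, two-sided, with Benjamini-Hochberg adjustment over 45037 probe sets and a threshold of 0.05. The fit was tested on simulated data. Lists of other genes used the probe set of highest mean per gene. Precision is limited by how few arrays there are.

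The members, lists and tests were chosen with earlier results of these data known. Per-cell values are given for members past the threshold and for the probe set of highest mean of each gene, and list genes are named where they passed or, in 2 of the comparisons, for the 2 smallest p. Probe sets and genes named in the account of the astrocyte cells were chosen after their values were seen. Alternatives covered normalization, the choice of probe set, a filter at the median, the variance model, the groups in the fit, the replicate block and each cell left out, and the 18S covariate was added later. Figures used matplotlib 3.10.9 (Python 3.11.15).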

Additional observations from a re-analysis of the deposited data

Results flagged for a closer look

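In groups of 4 to 10 cells, 54 groups of values were examined for a cell far from the rest by Dixon's criterion at the 95% level, which chance passes about 1 time in 20, and 5 were picked out. Laptm5 1426025_s_at was 4.36 in fibroTIPeR 3, against 5.76 to 5.88 in the other fibroTIPeR cells. Tyrobp was 7.02 in fibroTIPeR 1, against 10.55 to 11.57 in the others. C1qa was 9.88 in astroTIPeR 5, against 6.08 to 6.72 in the others. Fcer1g was 4.38 in cardiomyocyte 4, against 3.85 to 3.87, and Laptm5 1447742_at was 15.16 there, against 15.05 in each of the other cardiomyocytes.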

How the results depend on the processing

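The number of members past the threshold was computed for 7 results under 146 alternatives, and 130 gave the main count. For fibroControl against fibroblast, where 2 passed, 1 passed with eBayes without trend, 1 with robust eBayes, 1 with the compared groups alone, 0 with the mean of the probe sets of a gene and 0 with the 18S level as a covariate, and 0 to 1 when a cell was left out. For cardiomyocyte against fibroblast, where 0 passed, 1 passed with the highest probe set per gene, 1 with probe sets above the median level and 1 with arrayWeights, and 0 to 1 when a cell was left out. For fibroTIPeR against fibroblast the range was 0 to 1, the 1 appearing without fibroTIPeR 5. The Laptm5 1447742_at difference was 0.33, while that of the mean of all Laptm5 probe sets, a different quantity, was -0.30. The cause of these changes was not tested. With the replicate number as a fixed term (the replicate block), the counts were 2 for fibroControl against fibroblast and 0 for each of the others, and the differences stayed 5.04 and 0.33. Same-numbered cells correlated between -0.30 and 0.24, so the numbers were not taken to pair cells. The calls over all probe sets varied more, between 0 and 3782 for fibroControl against fibroblast, between 9 and 3218 for cardiomyocyte against fibroblast, between 2 and 233 for astroTIPeR against astroControl, between 0 and 9 for fibroTIPeR against fibroControl, between 0 and 435 for fibroTIPeR against fibroblast, between 19 and 350 for fibroTIPeR against cardiomyocyte and between 0 and 5 for the difference of transfer effects under settings that kept all cells. With a cell left out the ranges were 70 to 1118, 19 to 105, 7 to 1673, 0 to 42, 0 to 375, 79 to 643 and 0 to 794 in the same order. The highest counts of the first pair came with arrayWeights, and the 0 for fibroControl against fibroblast came with the 18S covariate. The values as deposited moved the median difference of all probe sets by up to -0.13, and 0 to 2 members changed sign under another scaling. Signal near the low end of the arrays limits what Cd68, Aif1, Fcer1g and most probe sets of C1qb and Pycard can show.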
